A study of Drosophila melanogaster with 3 samples.

Results

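Insulator and promoter architecture genes encode the proteins that partition fly chromatin and organise its core promoters, and 10 of them were examined here for binding by Cycle. The genes were Chro, pzg, BEAF-32, CTCF, su(Hw), Cp190, mod(mdg4), Trl, Dref and M1BP, out of 13945 protein-coding genes on the chromosome arms. They were chosen by the role of their products and partly on the signal of the peak at Chro, which is among the strongest of the list. Their peak strengths and peak counts are therefore given as a description, with no test. Each gene was taken with 2 kb on either side, and every peak whose summit fell in that region was read from the pooled list, from the list thresholded by the irreproducible discovery rate and from the lists of the 3 replicates. All 10 genes were matched by symbol in the dm6 gene models. The study measured Cycle fused at its C terminus to GFP by ChIP-seq, with an anti-GFP antibody, in whole white prepupae of a single transgenic line labelled cyc-GFP. Males and females were pooled, and the 3 biological replicates form 1 group, so no treatment or genotype was compared. Whole animals mix all tissues, so a weak peak in all cells and a strong one in a few cells cannot be told apart.

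Cycle is the bHLH-PAS partner of Clock in the circadian oscillator, and the pair is known for binding the E-box CACGTG. Insulators separate neighbouring regulatory domains: DNA-binding proteins such as BEAF-32, CTCF and su(Hw) mark their sites, and shared cofactors such as Cp190, mod(mdg4) and Chro are recruited to them. Many insulator proteins of the fly also sit at the starts of housekeeping genes, where DREF, M1BP and the partners Chro and pzg act. GAGA factor, the product of Trl, opens chromatin at other promoters.

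In 9 of the 10 genes, all but mod(mdg4), the nearest summit of the thresholded list was no farther than 1 kb from an annotated start. The exact binomial (Clopper-Pearson) 95% interval of this share was 55.5 to 99.8%, and 28.6% of all protein-coding genes met the same rule. Without Chro the count was 8 of 9. All 10 genes had at least 1 thresholded summit in the gene body with 2 kb on each side. This applied to 42.3% of all protein-coding genes, and to 50.4% of the 6958 genes within the members' range of lengths, 1909 to 26556 bp. In the gene models, 7 of the 10 genes had a start of another gene within 1 kb upstream on the opposite strand, compared with 36.2% of all protein-coding genes. Such divergent genes met the 1 kb rule in 47.5% of cases across the genome, and a summit between both starts counts for either gene.

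The 10 regions held 19 thresholded and 30 pooled summits. Of the 19, 11 lay within 1 kb of a start of the member, 6 within 1 kb of another gene's start only, and 2 farther than 1 kb from any start. Over the whole list, 47.9% of 7227 summits were within 1 kb of a protein-coding start. The 19 were taken from gene bodies with 2 kb on each side, so their nearness to starts is partly built in. The share over the whole list is not a matched background for them. The authors' signal ran from 118.8 to 3762 among the 19 peaks, and the list itself began at 110.3. The strongest peak of these regions to miss the threshold had a pooled signal of 95.6 and stood at the start of mod(mdg4). At the edge of the regions, the nearest thresholded summit left out lay 2598 bp from su(Hw), with a signal of 133.8. The next lay 3257 bp from CTCF, with a signal of 110.3, the lowest of the list. For the other 8 genes the nearest excluded summit was between 5428 and 20526 bp away.

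Peak strength differed widely among the 10 genes. The relative signal divides a peak's signal in a replicate by the median over thresholded peaks in that replicate, so that 1 stands for a typical peak. At the strongest summit of each gene, its mean was 17.7 for Chro, 7.86 for Trl, 5.26 for mod(mdg4) and 4.76 for Cp190. It was between 1.34 and 1.82 for BEAF-32, Dref, pzg and M1BP, and below 1 for CTCF and su(Hw), at 0.808 and 0.720. In this order, the replicate values did not overlap between Chro and Trl, between Trl and mod(mdg4), or between Cp190 and BEAF-32. M1BP and CTCF were not compared in this way, since M1BP had no peak in replicate 1 and its place in the order rests on replicates 2 and 3. The missing peak gave no value, so the mean of M1BP may be too high. All other neighbours in the order overlapped. The order was made from these same values, and Chro was chosen partly by its signal. How often such gaps occur among all thresholded peaks was not counted, so they are a description only. The median over the 10 genes was 1.74, and 8 of the 10 strongest summits ranked in the stronger part of the list, among its first 3613 peaks. Of all protein-coding genes, 27.6% had a summit of this strength in the gene body with 2 kb on each side, out of the 42.3% with any thresholded summit there.

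**Figure D1:**
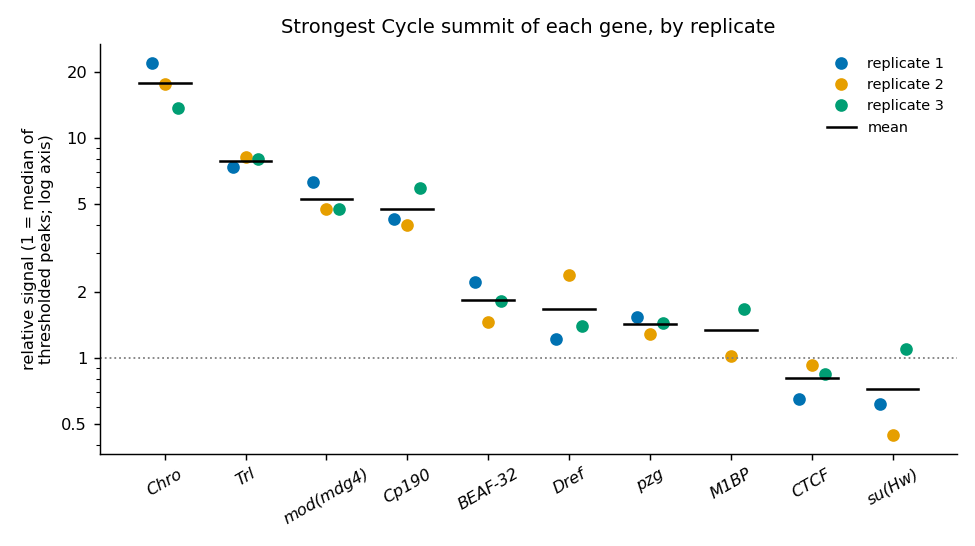
Relative signal of the strongest thresholded Cycle summit of each gene on a log axis, where 1 (dotted line) is the median thresholded peak. Points are the 3 replicates (2 for M1BP) and bars their mean. Chro lies highest at 17.7, and CTCF and su(Hw) have means below 1.

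The cofactor genes Chro and pzg encode partners found together in the interbands of polytene chromosomes, a chromodomain protein and a zinc finger protein. Chro (FBgn0044324, 3L, 22873702 to 22878984, minus strand) had a single thresholded summit, at position 22878892, in the 5' UTR exon 92 bp from the nearest of its 3 starts. Its signal of 3762 ranked 6 of 7227. The relative signals were 22.02, 17.6 and 13.6 in replicates 1, 2 and 3, a mean of 17.7 ± 4.203 (SD, n = 3), and the peak ranked 5, 8 and 11 in the replicate lists. All replicates thus placed it among their strongest peaks, and their summits lay within 17 bp of each other, the closest agreement among the members' peaks with 3 values. The start of Ssl1, which encodes a subunit of the general factor TFIIH, lies 105 bp upstream of Chro on the opposite strand and 197 bp from the summit. The strong peak ran from 22878673 to 22879139 and covered this start too, so it cannot be assigned to Chro alone. A peak at the innermost start of Chro, with a pooled signal of 39.3 at rank 18317, stayed under the threshold.

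The summit of Chro is shown with the sequence of its minus strand, because the BEAF-32 pentamer CGATA is centred 2 bp from it. The stretch between the starts of Chro and Ssl1 follows on the plus strand. Capitals mark TATCG, the reverse complement of CGATA, in the first sequence and the palindrome GTGCAC in the second.
Chro summit, chr3L:22878880-22878908: ttagtttaaagcTATCGacaggcaataca
Chro and Ssl1, chr3L:22878985-22879088: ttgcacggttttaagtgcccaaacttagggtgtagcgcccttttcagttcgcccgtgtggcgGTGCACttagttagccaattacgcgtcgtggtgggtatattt

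The peak at pzg (FBgn0259785, 3L, 21286099 to 21290310, plus strand) was far weaker, with a signal of 305.6 at rank 2231. Relative signals of 1.54, 1.29 and 1.44 gave a mean of 1.42 ± 0.127 (SD, n = 3), so the replicates agreed closely. Its summit at 21285931 lay 168 bp upstream of pzg but inside the 5' UTR exon of CG12974, 31 bp from a start of that gene. CG12974 is transcribed away from pzg, and its nearest start lies 137 bp from that of pzg. The peak cannot be assigned to either gene. A CGATA match was centred 9 bp from the summit.

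Cp190 encodes a BTB zinc finger cofactor shared by several insulator complexes. The gene (FBgn0000283, 3R, 15270432 to 15275241, minus strand) had 1 thresholded summit, at 15275379, in intergenic sequence 138 bp upstream of its 5' end. CG4338 starts 143 bp from the same summit on the opposite strand, so the peak sat midway between both starts and cannot be assigned to either gene. Its signal of 1048.6 ranked 223. The relative signals were 4.30, 4.03 and 5.94, a mean of 4.76 ± 1.03 (SD, n = 3), and replicate 3 was the highest. The GC content within 100 bp of the summit was 23.9%, the lowest among the members' summits, whose median was 35.8% (34.3% over all thresholded peaks). The AT-rich centre of this divergent promoter held none of the motifs searched.
Cp190 and CG4338, plus strand, chr3R:15275319-15275438: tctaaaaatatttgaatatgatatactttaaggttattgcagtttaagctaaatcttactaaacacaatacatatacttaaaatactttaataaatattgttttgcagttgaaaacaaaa

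The strongest peak in mod(mdg4) did not mark its own start. The gene encodes BTB proteins of the gypsy insulator complex, and its mRNAs join shared first exons to many alternative last exons, some of them by trans-splicing from separate precursor RNAs. It spans 26556 bp (FBgn0002781, 3R, 21350846 to 21377401, minus strand) with 1 start in the models. At that start the pooled list had a peak of signal 95.6, rank 8270, only 10 bp away. The replicate lists held peaks there with signals of 13.7, 41.1 and 39.9, at ranks 21437, 6549 and 8530. The thresholded list began above this level, so the start of mod(mdg4) counted as unbound.

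By contrast, a summit at 21365454, 11947 bp inside the gene, had a signal of 1128 and ranked 184. Its relative signals were 6.30, 4.74 and 4.75, a mean of 5.26 ± 0.902 (SD, n = 3). It lay in a 5' UTR exon of the precursor model pre-mod(mdg4)-E, 34 bp from a start of it. The starts of 10 such precursor models were within 1 kb of this summit, 3 of them, pre-mod(mdg4)-AB, -C and -E, on the minus strand and the others on the plus strand. These models were named after their values were seen. A weaker thresholded summit at 21373602, signal 147.7 and rank 5357, lay 27 bp from the shared start of the precursor models -AA, -N and -O. The other 2 thresholded summits of the region were outside the gene. One at 21378801, with a signal of 445.2, lay 176 bp from the start of tin, the homeobox gene of heart development, and its relative signals of 1.11, 1.65 and 3.06 were the most variable of the members' peaks. The other at 21350027, with a signal of 149.8, lay 426 bp from the start of aus and had no peak in replicate 1.
mod(mdg4) precursor starts, plus strand, chr3R:21365489-21365608: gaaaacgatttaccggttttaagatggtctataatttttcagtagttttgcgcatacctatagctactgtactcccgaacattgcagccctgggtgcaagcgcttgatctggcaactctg
This stretch lies between the divergent precursor starts, 35 bp from the summit, and none of the motifs searched is in it.

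CTCF and su(Hw), both DNA-binding zinc finger proteins of insulators, had the weakest peaks of the 10 genes. CTCF (FBgn0035769, 3L, 7353578 to 7356713, minus strand) had its summit at 7356627, in the 5' UTR exon 86 bp downstream of its only start, and no other coding start lay within 1 kb. The signal was 174.7 at rank 4492, and the relative signals of 0.653, 0.927 and 0.843 averaged 0.808 ± 0.140 (SD, n = 3). The replicate summits spanned 102 bp, the widest span among the members. For su(Hw) (FBgn0003567, 3R, 14304455 to 14308589, minus strand) the summit at 14308892 was intergenic, 303 bp upstream of its start. It was nearer to Polr2I, an RNA polymerase II subunit gene on the opposite strand, 197 bp away, and cannot be assigned to either gene. Its signal was 171.9 at rank 4565, and relative signals of 0.614, 0.446 and 1.10 averaged 0.720 ± 0.340 (SD, n = 3). Replicate 3 stood well above the other 2, and in replicate 2 the peak ranked only 9239.

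The first intron of CTCF is shown because it holds a match to the CTCF core AGNNGGCGC, searched on both strands, with a CGATA match beside it. Both are in capitals.
CTCF intron, plus strand, chr3L:7356461-7356580: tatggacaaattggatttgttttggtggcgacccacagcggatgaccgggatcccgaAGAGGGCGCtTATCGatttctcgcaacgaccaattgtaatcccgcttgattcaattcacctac
The CTCF match was centred 105 bp from the Cycle summit. Within 250 bp of the summit, 3 of the 19 member summits and 6.09% of all thresholded summits held such a match.

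Dref encodes the factor that binds the element TATCGATA at housekeeping and replication genes, and it shares its promoter with RpL13, a ribosomal protein gene. The gene (FBgn0015664, 2L, 9964147 to 9967229, minus strand) had its summit at 9967261, between the starts, 32 bp from Dref and 52 bp from the nearest start of RpL13. Its signal was 353.9 at rank 1807. The relative signals were 1.22, 2.37 and 1.403, a mean of 1.66 ± 0.621 (SD, n = 3), and replicate 2 was the highest. The replicate summits spanned 85 bp. Those of replicates 2 and 3 were nearest to RpL13, at 12 and 10 bp from a start, and that of replicate 3 lay in its 5' UTR exon. The peak cannot be assigned to either gene. The 83 bp between both starts are printed in full, with the CGATA match, centred 17 bp from the thresholded summit, in capitals.
Dref and RpL13, plus strand, chr2L:9967230-9967312: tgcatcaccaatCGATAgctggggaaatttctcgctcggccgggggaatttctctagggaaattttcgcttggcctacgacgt

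M1BP encodes the zinc finger protein of the core promoter element Motif 1, a regulator of paused polymerase. At this gene (FBgn0037621, 3R, 8729790 to 8731698, minus strand) the summit at 8732023 lay 325 bp upstream of its start and 68 bp from the start of CG8202 on the opposite strand. Though nearer to CG8202, it cannot be assigned to either gene. The signal was 322.4 at rank 2049, and replicate 2 gave a relative signal of 1.02 and replicate 3 one of 1.66. Replicate 1 had no peak in the region of M1BP. Its nearest summits were 12378 and 13813 bp away. Of the 2049 thresholded peaks at least as strong as this one, 51, or 2.49% (95% interval 1.86 to 3.26%), lacked a replicate 1 peak. M1BP therefore rests on 2 replicates.

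**Figure D2:**
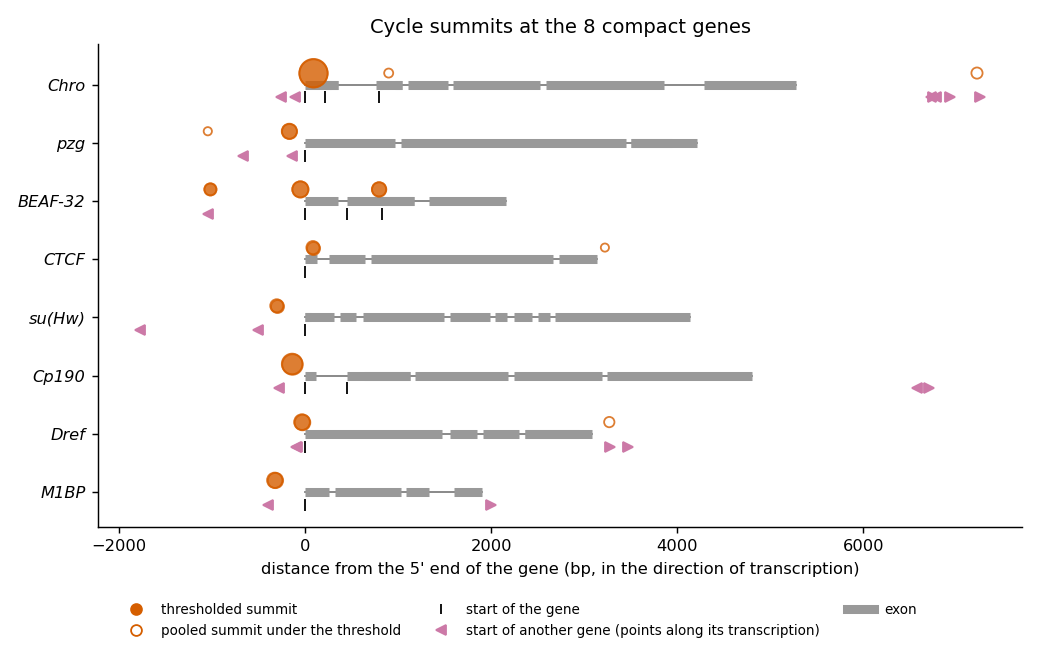
Cycle summits at the 8 genes other than Trl and mod(mdg4), drawn from the 5' end in the direction of transcription, in bp. Filled circles are thresholded summits and open ones pooled summits under the threshold, with area growing with the square root of the signal, and triangles mark starts of other genes. Thresholded summits gather at the 5' ends, next to oppositely transcribed neighbours for 6 of the 8 genes.

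Trl had the most thresholded summits of the 10 genes, 5 in its body with 2 kb on each side, and 2.01% of all protein-coding genes had 5 or more. That share was not matched for length, and a longer region can hold more summits. Trl spans 13121 bp, against a median of 2166 bp for all protein-coding genes. The gene (FBgn0013263, 3L, 14747929 to 14761049, minus strand) has a distal start at 14761049 and 3 proximal ones between 14757336 and 14757962. The strongest summit, at 14759503, was intronic, with a signal of 1703.6 at rank 75. It lay 1541 bp upstream of the nearest proximal start, in the intron that separates the proximal from the distal start. Its relative signals of 7.41, 8.16 and 8.01 averaged 7.86 ± 0.397 (SD, n = 3), the smallest spread relative to the mean among the members' peaks with 3 values, 5.05%. Trl thus had a strong and even peak away from any annotated start.

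Of the other summits at Trl, the one at 14757222 lay 114 bp downstream of a proximal start, in a 5' UTR exon, with a signal of 736.4 at rank 520. Its relative signals were 4.50, 3.38 and 2.55. The summit at 14756184, in the next intron 1152 bp downstream of that start, had a signal of 457.4 and relative signals of 2.65, 2.01 and 1.80. Both were highest in replicate 1 and lowest in replicate 3. At the distal start, a summit 640 bp downstream had a signal of 203.1 and relative signals of 0.974, 0.823 and 1.07. CG42507 shares a proximal start with Trl in the models. The fifth summit, with a signal of 118.8, was in an intron of the upstream neighbour Mgat4a, a glycosyltransferase gene, 403 bp from its start. A pooled peak 234 bp upstream of the outermost proximal start missed the threshold, at 74.3.

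The sequences of the Trl intron at its strongest summit and of the proximal start region are shown, since the second holds a GAGAGA repeat, the sequence bound by GAGA factor itself. It reads as TCTCTC on the plus strand and is in capitals. Its 7 overlapping matches were centred 160.5 to 172.5 bp from the summit at 14757222.
Trl intron, plus strand, chr3L:14759443-14759562: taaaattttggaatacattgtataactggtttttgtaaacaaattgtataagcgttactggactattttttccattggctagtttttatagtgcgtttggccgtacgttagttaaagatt
Trl proximal start, plus strand, chr3L:14757337-14757422: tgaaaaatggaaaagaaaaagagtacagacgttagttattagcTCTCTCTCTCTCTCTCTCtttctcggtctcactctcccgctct

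**Figure D3:**
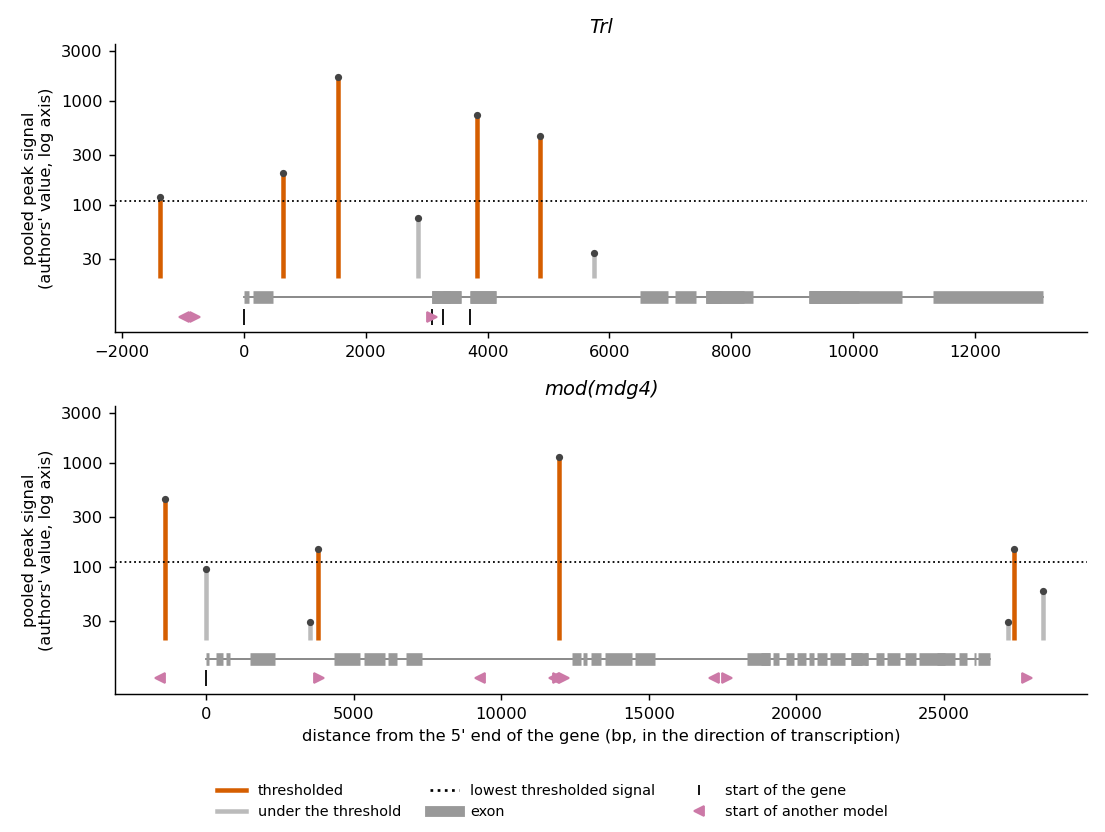
Pooled peak signal (authors' value, log axis) by distance from the 5' end of Trl and mod(mdg4), in bp; orange bars are thresholded, grey ones are not, and the dotted line is the lowest thresholded signal, 110.3. The highest bar of Trl, 1703.6, stands in an intron, and that of mod(mdg4), 1128, at starts of precursor models far inside the gene.

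BEAF-32 had a Cycle summit at both ends of its cluster of starts. The gene encodes the boundary element factor that recognises CGATA, in alternative forms from separate starts (FBgn0015602, 2R, 14770469 to 14772630, plus strand). The summit at 14770420 lay 49 bp upstream of the first of its 3 starts, with a signal of 397.1 at rank 1492. Its relative signals of 2.21, 1.46 and 1.81 averaged 1.82 ± 0.376 (SD, n = 3). A second summit, at 14771266, lay 35 bp upstream of the last start, with a signal of 246.2 and relative signals of 0.970, 1.43 and 0.998, a mean of 1.13 ± 0.257 (SD, n = 3). The ranges of both peaks did not overlap, with the lowest value of the first just above the highest of the second. Another summit, at 14769453, lay 1016 bp upstream of BEAF-32 and 30 bp from the start of Spred, which encodes an inhibitor of Ras signalling. It had a signal of 124.4 and no peak in replicate 1.

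The 3 replicates placed most of these peaks alike. Of the 19 thresholded peaks, 16 had an overlapping peak in every replicate list, compared with 90.1% of all 7227. The 3 others, at M1BP, near Spred and near aus, were missing from replicate 1, from which 8.12% of all thresholded peaks were missing, and replicates 2 and 3 held all 19. The strongest 7227 peaks of each replicate supported 13 of the 19 in all 3 replicates, and 68.2% of the whole list. The coefficient of variation of the relative signal over replicates had a median of 22.2% for the 16 peaks and 22.9% for the 6514 peaks of the list with 3 values. The span of the replicate summits had a median of 37 bp and 45 bp. The list was made from these replicates, so the agreement is partly built in. When a replicate was left out and the strongest peaks of both others had to overlap, su(Hw) was lost without replicate 1, M1BP without replicate 2, and both without replicate 3. The count of genes with a summit within 1 kb of a start was then 8, 8 and 7, where 24.2, 19.9 and 20.01% of all protein-coding genes met the rule.

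**Figure D4:**
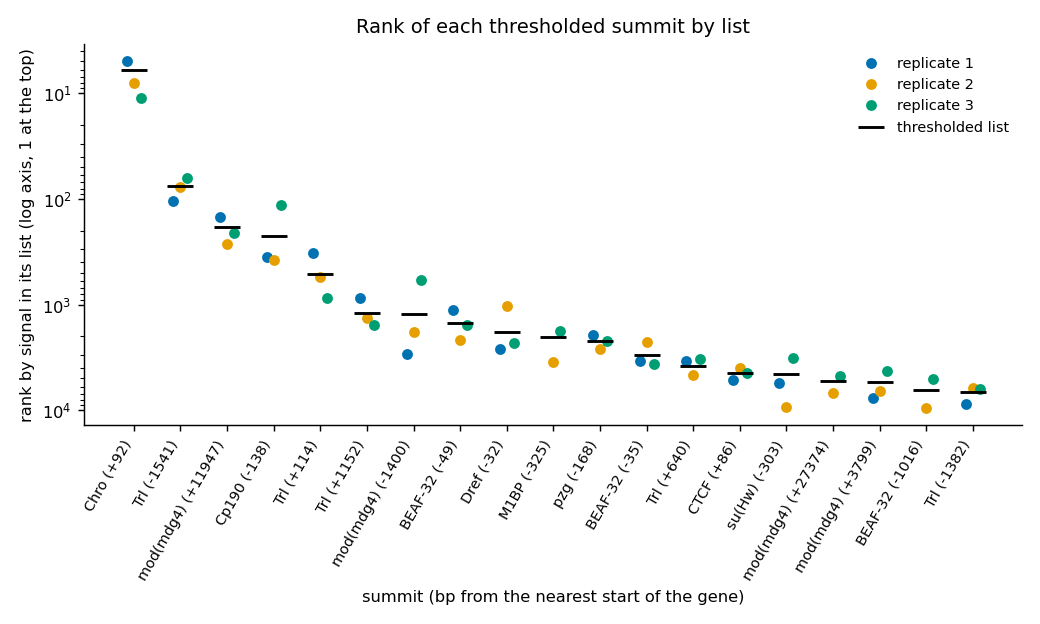
Rank by signal of the 19 thresholded summits in the thresholded list (black bars) and in each replicate list (points), on a log axis with rank 1 at the top; labels give the gene and the distance in bp from its nearest start. Chro ranks 5, 8 and 11 in the replicates, and 3 summits have no replicate 1 point.

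None of the 19 summits had the E-box CACGTG within 100 bp, and none had it within 250 bp. By the rule of 3, an approximate 95% limit of 3 divided by n, a count of 0 of 19 allows a share of up to 15.8%. The E-box was within 100 bp of 1.63% of all thresholded summits and within 250 bp of 5.85%. Both shares are under that limit, so the number of summits is too small to show a difference. The 10 promoters, taken from 250 bp before the 5' end of the gene to 50 bp into it, did not hold it either. It was in 4.202% of all promoters, and by the same rule a count of 0 of 10 allows up to 30%. These intervals and limits cover counting error only.

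The sequences of the architecture factors themselves were searched in the same way, on both strands. The palindrome GTGCAC was searched with them because it led earlier results on these data. Its share over all thresholded summits is therefore not an independent background. CGATA was within 100 bp of 6 of the 19 summits, or 31.6%, and of 26.6% of all thresholded summits. The 6 were those at Chro, pzg, CTCF and Dref and 2 in the region of BEAF-32. A match lay within 50 bp of the summit in 4 of the 19, at Chro, pzg, Dref and the start of Spred, and in 14.9% of all. GGTCACAC, the M1BP sequence, was found at 1 summit, that near Spred, and at 1.96% of all. TATCGATA, GAGAGA, GCATACTT for su(Hw), AGNNGGCGC for CTCF and the palindrome GTGCAC were found at none within 100 bp, each with the same limit of 15.8%. Their shares over all thresholded summits were 3.32, 9.66, 1.54, 2.73 and 8.36%.

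The DREF element TATCGATA, found at none of the 19 summits, was in 4 of the 10 promoters, those of BEAF-32, CTCF, Cp190 and mod(mdg4), and in 9.36% of all 13945 promoters. Its centre was 206.5, 17.5, 0.5 and 50.5 bp upstream of the start in this order. The nearest thresholded summit of each region was 157.5, 103.5, 137.5 and 1349.5 bp from that centre. For mod(mdg4) this was the summit near the start of tin, outside the gene. TATCGATA contains CGATA on each strand, so every match to it is also a match to CGATA, which was in 6 of the 10 promoters and in 47.4% of all. The Dref promoter itself held CGATA but not TATCGATA, and that of M1BP held neither. GGTCACAC was in 1 promoter, that of su(Hw), and in 7.70% of all.

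The element is shown with its surroundings on the strand of each gene for 3 of these promoters, with TATCGATA in capitals.
CTCF, chr3L:7356716-7356745, minus strand: accaatcgaacTATCGATAgctggcggtac
Cp190, chr3R:15275227-15275256, minus strand: tatcgcatggcTATCGATAgctgccgagcg
mod(mdg4), chr3R:21377437-21377466, minus strand: atattttaagcTATCGATAtattgtcactt

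Other genes with related roles were taken from a list of insulator, cohesin, chromatin and promoter factors. Of its 35 matched genes, 18 met the rule of a thresholded summit no farther than 1 kb from a start, or 51.4% (exact binomial 95% interval 34.0 to 68.6%), against the 28.6% of all protein-coding genes. The strongest was at Adf1, which encodes a Myb-related promoter factor, with a signal of 2947 at rank 20 and relative signals of 19.1, 12.6 and 10.3. It was followed by lola at rank 432, Nup98-96, a nuclear pore gene, at 476, and row at 992. Next came lolal at 1028, the CBP gene nej at 1428, the condensin gene Cap-H2 at 1647 and the kinase gene JIL-1 at 1950. From Adf1 to JIL-1 in this order, the summits lay 798, 451, 49, 77, 9, 653, 255 and 569 bp from a start of the gene. Starts of other genes near these summits were not listed. Grouped by role after the values were seen, the BTB genes lola, psq and lolal, whose products are related to GAGA factor, were bound in 3 of 3 cases. Genes of mostly DNA-binding insulator proteins were bound in 2 of 10 cases, pita and Clamp, beside 28.6% of all protein-coding genes. Clamp had a signal of 113.1 at rank 7051, and no peak in replicate 1. Of 5 genes for cohesin and its loader 1 was bound, vtd, with a signal of 133.7 at rank 5926. Groups of 10 and 5 genes are too small to show a difference from the share of all genes. The remaining 17 genes, of mixed chromatin and promoter roles, held 12 of the 18 that were bound. A pooled summit within 1 kb of a start was present at all 5 cohesin genes, at 29 of the 35 listed genes and at 55.4% of all protein-coding genes.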

How the data were processed

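ChIP-seq peak lists for the 3 replicates were used on dm6. Each replicate list and the pooled list hold peaks and background regions called against the same control alignment, per the texts deposited with them, and the thresholded list was derived from these. The signal of a peak is the authors' deposited value, on a scale not given in the sources used here, as are the aligner and peak caller. The summit is the deposited start plus offset, counted from 1. The 7227 thresholded peaks were the strongest pooled peaks. Read depth is unknown.

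Gene models were Ensembl release 115 (build 6.54), with 19607 coding starts, and the sequence was RefSeq Release 6. Starts of non-coding genes were not considered. A replicate value came from the overlapping replicate peak (at least 1 bp) nearest by summit. Members, lists, motifs and alternatives were chosen with earlier results of these data known. Named were the 10 members, other genes with a start within 1 kb of a summit at a member start, and up to 8 other listed genes in the stronger part of the list. Of 36 listed genes 35 matched. No test was made: there is 1 group. Functions were checked on made-up genes and peaks. Alternatives varied windows, flanks, starts, stringency, replicate matching and replicates. The dm3 lists were not used. Python 3.11.15, numpy 2.4.6, pandas 2.3.3, scipy 1.17.1 and matplotlib 3.10.9 were used.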

Additional observations from a re-analysis of the deposited data

How the results depend on the processing

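The count of member genes with a summit within 1 kb of a start was 9, against 28.6% of all protein-coding genes, and lay between 6 and 10 over all alternatives, with 7 to 8 when a replicate was left out. It was 6 when the summit had to fall inside a strong peak of all 3 replicates, which removed su(Hw), Dref and M1BP and left 18.45% of all genes, and 10 with a window of 2 kb, where 34.6% of all genes counted. The 18 other listed genes became 12 to 19, where 16.8 and 34.6% of all genes met the rule. Without a replicate they were 14 to 16, where 19.9 to 24.2% of all genes did. With no flank, 5 members and 9 of the 19 summits were inside gene bodies, as were summits in 14.9% of all genes. The 19 summits fell to 12 in the stronger part of the list and to 12 inside strong peaks of all 3 replicates, and ranged from 13 to 17 without a replicate, while members with a summit ranged from 8 to 9. The median relative signal of 1.74 stayed between 1.68 and 1.84, and 1.76 to 1.84 without a replicate. With a motif window of 250 bp, the number of the 19 summits with a match was 12 for CGATA, 3 for TATCGATA, 3 for the CTCF core, 2 for GGTCACAC, 2 for GAGAGA and 2 for GTGCAC. The shares of all thresholded summits also rose, to 49.2, 5.81, 6.09, 4.50, 25.5 and 16.5% in this order. The relative signal and rank of each member's strongest summit moved by less than 1 SD under the other ways of matching, scaling and ranking. Leaving out a replicate keeps a mean of so few values within 1 SD by construction and shows nothing of stability; M1BP then ranged from 1.02 to 1.66.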

Other observations

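Among the other listed genes, the BTB genes psq and lola had 12 and 5 thresholded summits in the gene body with 2 kb on each side, which was seen only after their values were known. Both lie on 2R and are long, with 59393 and 61398 bp against a median of 2166 bp for all protein-coding genes, of which 2.01% had 5 or more summits. The strongest summit of psq within 1 kb of a start ranked 2728, with relative signals of 1.10, 1.88 and 0.828 in replicates 1, 2 and 3. At lola the values were 4.19, 2.21 and 3.59.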
